A study of Homo sapiens with 6 samples.

Results

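LTR1, LTR8 and MER52 are families of long terminal repeats (LTRs) left in the human genome by endogenous retroviruses of the ERV1 class. RNA reads over their copies were compared between HEK293T cells given an antisense oligonucleotide (ASO) against U7 small nuclear RNA and cells given a control ASO. A copy was taken as a member when its repeat name, read from the locus identifier, was LTR1 or an LTR1 subfamily from A to F, LTR8, LTR8A or LTR8B, or MER52-int, MER52A, MER52C or MER52D. This gave 1595 loci under 22 names, out of 433837 loci under 5230 names, with 486 loci in the LTR1 family, 617 in LTR8 and 492 in MER52. Every listed locus had a read in some library, so copies without a read are not in these counts. Shares of loci given below are shares of the listed loci, not of all copies in the genome. No listed locus carried the name MER52B. The families were chosen by their read counts in these same libraries, in which several of their names were higher with the U7 ASO. Therefore every difference between the ASO groups given here is a description, and the calls on members are not an independent test.

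HEK293T cells are an established line of human embryonic kidney origin that expresses SV40 large T antigen. The U7 ASO group held 3 libraries of cells transfected with a chimeric ASO against U7 RNA at 100 nM, labelled as a U7 snRNA knockdown. The control ASO group held 3 libraries of cells transfected with an ASO against GFP, labelled WT. The time of harvest is not given in the sources used here, both groups went through transfection with an oligonucleotide, and all libraries are of 1 cell line.

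An LTR carries the promoter, enhancer and polyadenylation signals of a retrovirus, and a provirus has an LTR on either side of an internal part that encodes the viral proteins. Most old insertions have lost the internal part by recombination, which leaves a solitary LTR that can still start or end a transcript. The internal parts that belong to LTR1 and LTR8 carry the names HUERS-P2-int and HUERS-P1-int, and MER52-int is the internal part that goes with the MER52 LTRs. LTR12 elements are the LTRs of another ERV1 group, HERV9, and are the elements named in the title of the study. U7 RNA guides the small nuclear ribonucleoprotein that cuts histone pre-mRNAs at their 3′ ends.

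The libraries held between 2089822 and 2819540 reads in repeat loci with the U7 ASO, and between 1926892 and 2025985 with the control ASO. These totals cover repeat loci only. Members took 0.251% to 0.305% of the reads in U7 ASO libraries and 0.153% to 0.178% in control ASO libraries. Loci under the repeat name U7, 16 in all, summed to 10, 4 and 6 reads with the U7 ASO and 10, 6 and 12 with the control ASO, too few to check the labels. A locus is known by its repeat name, a copy number that can recur, and a running number that orders the loci, so MER52A_dup15_4352925 and MER52A_dup15_4556820 are separate copies. The tables give no coordinates, strand or length, and therefore no position, gene or sequence is given for a copy. Reads of near-identical copies could have been placed on another copy, so values of single loci are uncertain, and reads of a longer transcript that crosses an LTR are counted like those of the LTR itself.

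The families behaved differently as sums. The MER52 family, whose LTRs MER52A, MER52C and MER52D are counted with MER52-int, had 865, 747 and 838 CPM (read counts scaled to a common library total) in the U7 ASO libraries, against 229, 302 and 274 CPM in the control ASO libraries. Its mean was 816 ± 62.0 CPM with the U7 ASO and 268 ± 36.9 CPM with the control ASO (SD, n = 3 each), a ratio of 3.04. The LTR1 family had 759, 705 and 902 CPM with the U7 ASO and 415, 387 and 349 CPM with the control ASO, a ratio of means of 2.05. For MER52 and LTR1 the groups did not overlap, with the U7 ASO libraries the higher ones. The LTR8 family had 1372, 973 and 1102 CPM with the U7 ASO and 1016, 927 and 1081 CPM with the control ASO, and these groups overlapped. In bulk libraries, more cells with a transcript and more of it per cell cannot be told apart.

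Of the 22 names, 20 had enough reads to be tested among all 2236 testable names, 5 were called raised and 0 were called lowered (edgeR quasi-likelihood test, adjusted p under 0.05 over all names). Among all tested names 1.52% were called raised and 1.03% lowered. The raised names were LTR1A2, LTR1C, LTR8B, MER52A and MER52D. At an unadjusted p under 0.05, 8 of the 20 were higher and 0 lower, against 6.93% higher and 7.65% lower over all tested names. DESeq2 called 6 of the 20 raised and limma-voom 5, where DESeq2 raised 2.06% and limma-voom 1.57% of all tested names, and both lowered 0 of the 20, where DESeq2 lowered 1.7% and limma-voom 1.83% of all tested names. The groups did not overlap for 10 names, 9 of them higher and 1 (LTR1B) lower with the U7 ASO, where the shares over all tested names were 9.93% higher and 10.2% lower. The median log2 fold change was 0.74 over the 20 names and -0.01 over all tested names. Without a test were LTR1B1, which averaged 7.85 CPM with the U7 ASO and 4.93 CPM with the control ASO, and LTR1C3, which averaged 3.39 CPM with the U7 ASO and 1.68 CPM with the control ASO.

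**Figure D1:**
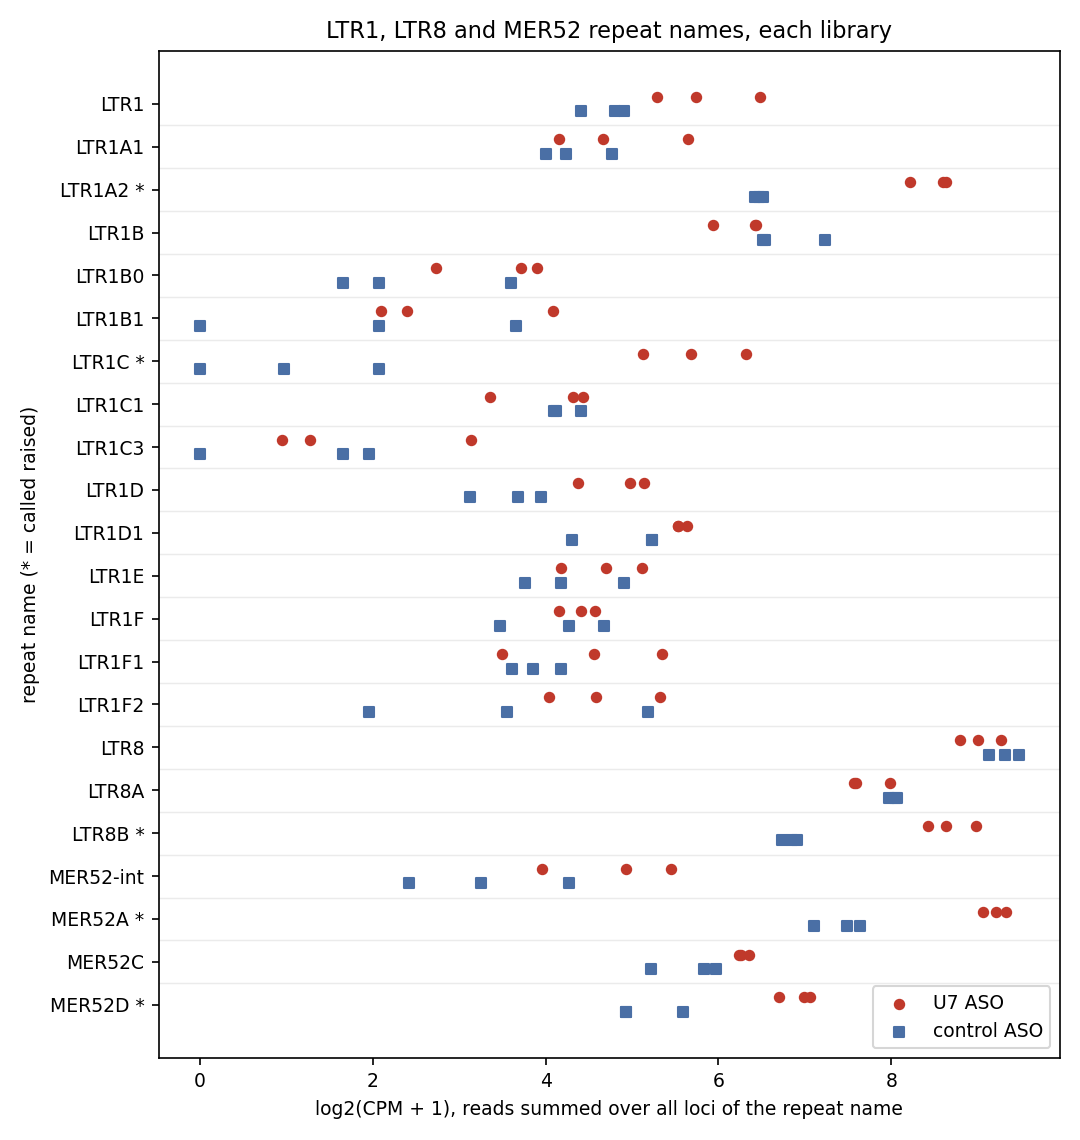
Reads summed over all loci of each repeat name, as log2(CPM + 1), with the 3 U7 ASO libraries as circles above the 3 control ASO libraries as squares. The 5 starred names, called raised, have all U7 ASO libraries to the right of all control ASO libraries, while LTR8 and LTR8A overlap.

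LTR1A2, MER52A and MER52D rose through many copies. LTR1A2, the LTR1 subfamily with the most listed copies, had 387, 296 and 397 CPM in the U7 ASO libraries, against 84.6, 90.2 and 87.3 CPM in the control ASO libraries. The control libraries were nearly equal and every U7 ASO library exceeded each of them more than 3-fold. The log2 fold change was 2.04 (SE 0.22). MER52A, the most abundant MER52 LTR, had 642, 533 and 594 CPM with the U7 ASO and 137, 198 and 179 CPM with the control ASO, with a log2 fold change of 1.78 (SE 0.21). MER52D, a less abundant LTR of the same group, had 133, 103 and 126 CPM with the U7 ASO and 47.1, 29.5 and 29.4 CPM with the control ASO. Its log2 fold change was 1.77 (SE 0.30), close to that of MER52A.

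The difference of these 3 names was shared by many loci. The copy with the largest difference carried 11.6% of the net difference of LTR1A2, 8.72% of that of MER52A and 8.04% of that of MER52D. It took 8 loci of LTR1A2, 26 of MER52A and 9 of MER52D to reach 50% of it. The mean CPM was higher with the U7 ASO at 146 of 175 LTR1A2 loci (83.4%), 260 of 326 MER52A loci (79.8%) and 73 of 91 MER52D loci (80.2%). Over all listed loci this share was 58.3%. With the 10 loci of largest difference left out, LTR1A2 averaged 188 CPM with the U7 ASO and 76.8 CPM with the control ASO, MER52A averaged 426 CPM with the U7 ASO and 150 CPM with the control ASO, and MER52D 69.6 CPM with the U7 ASO and 31.4 CPM with the control ASO. These remaining log2 ratios were 1.30, 1.51 and 1.15, a smaller difference in the same direction.

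**Figure D2:**
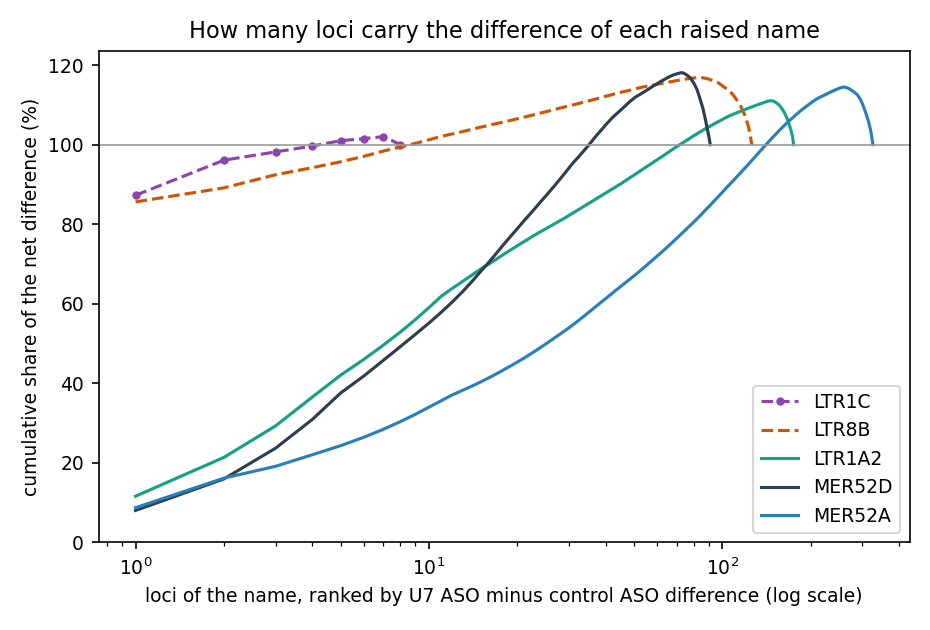
Cumulative share of the net U7 ASO minus control ASO difference in CPM (vertical axis) as loci of a raised name are added in order of their difference (horizontal axis, log scale). LTR1C and LTR8B start at 87.3% and 85.6% with a single locus, whereas LTR1A2, MER52D and MER52A start at 11.6%, 8.04% and 8.72%. Curves pass 100% and return because some loci were lower with the U7 ASO.

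More copies of these names also had reads with the U7 ASO. Of the listed LTR1A2 loci, 123 (70.3%) had reads in U7 ASO libraries only and 11 (6.29%) in control ASO libraries only. For MER52A these counts were 211 (64.7%) and 40 (12.3%), and for MER52D 57 (62.6%) and 9 (9.89%). Among all listed loci 45.7% had reads with the U7 ASO only and 26.8% with the control ASO only, and the U7 ASO libraries held more reads. The LTR8 family lay near that background, at 45.5% and 24.6%. Between 202 and 228 of the 492 MER52 loci had a read in a U7 ASO library, and between 70 and 107 in a control ASO library.

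LTR8B and LTR1C rose through single copies. LTR8B had 505, 342 and 396 CPM in the U7 ASO libraries and 114, 105 and 120 CPM in the control ASO libraries (log2 fold change 1.87, SE 0.22). A single copy, LTR8B_dup16_1886744, held 777, 450 and 634 reads in the U7 ASO libraries and 0, 2 and 0 in the control ASO libraries, the most reads of any member with the U7 ASO and a ratio of 853 (exact 95% counting interval 236 to 7050). Such intervals take each read as a separate count. The neighbour of that copy at the next running number, LTR12C_dup88_1886745, held 247, 163 and 327 reads with the U7 ASO and 0, 0 and 1 with the control ASO. The LTR8B copy carried 85.6% of the net difference of its name, and the other 125 loci averaged 156 CPM with the U7 ASO and 113 CPM with the control ASO.

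LTR1C, with 8 listed loci, had 33.9, 50.6 and 78.6 CPM in the U7 ASO libraries, against 0, 3.22 and 0.965 CPM in the control ASO libraries (log2 fold change 5.24, SE 0.66). LTR1C_dup1_5254070 carried 87.3% of that difference, with 72, 87 and 194 reads with the U7 ASO and 0 reads in each control ASO library. It was at least 108-fold higher, counted against 3 reads over the control group. LTR12C_dup4_5254075 lay 5 running numbers away and held 52, 26 and 78 reads with the U7 ASO and 0 with the control ASO.

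The name LTR1 itself missed the threshold, and its difference also rested on a copy beside LTR12C. It had 38.1, 52.6 and 88.6 CPM with the U7 ASO and 20.3, 29.0 and 27.0 CPM with the control ASO, which did not overlap, and its log2 fold change was 1.23 (SE 0.37). LTR1_dup6_1902368 carried 73.6% of it, with 54, 68 and 63 reads in the U7 ASO libraries and 0 in the control ASO libraries. The next running number was LTR12C_dup103_1902367, with 151, 186 and 174 reads with the U7 ASO and 0 with the control ASO. LTR1 passed with DESeq2, with replicate number as a block (log2 fold change 1.17) and without U7 ASO replicate 1 (1.48), and was 0.85 without U7 ASO replicate 3.

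The remaining names were not called. LTR8, the most abundant name of the families in control cells, had 615, 441 and 513 CPM with the U7 ASO and 635, 560 and 711 CPM with the control ASO (log2 fold change -0.28, SE 0.19). LTR8A had 252, 189 and 192 CPM with the U7 ASO and 267, 262 and 250 CPM with the control ASO (log2 fold change -0.30, SE 0.21). For these LTRs the groups overlapped. The copy with the most reads among them, LTR8_dup85_3346279, held 190, 170 and 100 reads with the U7 ASO and 341, 204 and 322 with the control ASO. LTR8_dup3_1223486 held 188, 114 and 115 reads with the U7 ASO and 227, 160 and 263 with the control ASO. Neither copy was called lowered, although the reads per library did not overlap for the first. LTR8_dup85_3346279 carried 75.2% of the net difference of LTR8. Without the 5 loci that were lower by most, LTR8 averaged 386 CPM with the U7 ASO and 330 CPM with the control ASO. In the same way LTR8A averaged 165 CPM with the U7 ASO and 155 CPM with the control ASO. The loci left out were picked by their difference.

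Among the LTR1 subfamilies, LTR1B had 84.6, 85.5 and 60.1 CPM with the U7 ASO and 150, 92.3 and 90.2 CPM with the control ASO (log2 fold change -0.53, SE 0.28). Its copy LTR1B_dup19_1741594, with 94, 136 and 86 reads with the U7 ASO and 230, 139 and 145 with the control ASO, had a larger difference than the whole name. Without that copy LTR1B averaged 33.2 CPM with the U7 ASO and 21.6 CPM with the control ASO, the opposite direction. LTR1D and LTR1D1 lay higher in every U7 ASO library without being called, with log2 fold changes of 1.31 (SE 0.48) and 0.60 (SE 0.36). LTR1A1, LTR1B0, LTR1C1, LTR1E, LTR1F, LTR1F1 and LTR1F2 overlapped between the groups and had log2 fold changes between -0.12 and 0.93. Leaving out LTR1A2 and the loci beside LTR12 or HERV9, the LTR1 family had 284, 307 and 377 CPM with the U7 ASO and 318, 290 and 256 CPM with the control ASO, which overlapped.

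Among the MER52 names, MER52C had 75.7, 81.0 and 74.4 CPM with the U7 ASO and 36.4, 55.8 and 61.7 CPM with the control ASO, without being called (log2 fold change 0.58, SE 0.30). The internal part MER52-int had 14.6, 29.6 and 42.7 CPM with the U7 ASO and 8.57, 18.2 and 4.34 CPM with the control ASO, which overlapped. Its log2 fold change was 1.49 (SE 0.56), and 1 of its 24 loci carried 46.4% of the net difference. Its means of 29.0 ± 14.1 CPM with the U7 ASO and 10.4 ± 7.13 CPM with the control ASO (SD, n = 3 each) are a small part of the family's sum, which came mostly from the LTRs.

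The internal parts that belong to LTR1 and LTR8 were not called either. HUERS-P2-int, which goes with LTR1, had 27.7, 23.4 and 26.3 CPM with the U7 ASO and 20.3, 8.59 and 7.72 CPM with the control ASO (log2 fold change 1.08, SE 0.50), which did not overlap. HUERS-P1-int, which goes with LTR8, had 61.6, 84.7 and 80.8 CPM with the U7 ASO and 76.0, 57.4 and 79.1 CPM with the control ASO, which overlapped (log2 fold change 0.10, SE 0.28). Few members lay within 5 running numbers of their own internal part among the listed loci, 10 of 486 LTR1 loci, 8 of 617 LTR8 loci and 2 of 468 MER52 LTRs.

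Position relative to LTR12 and HERV9 was examined next, since the study asked about those elements. LTR12C had 27021, 15912 and 18557 CPM with the U7 ASO and 1733, 1730 and 1959 CPM with the control ASO (log2 fold change 3.50), and HERV9-int had a log2 fold change of 3.79. A locus was set apart as beside them when a listed LTR12 or HERV9 locus lay within 20 running numbers. This held for 95 members (5.96%), and for 2.40% of all listed loci outside LTR12 and HERV9. Of the 1710 listed LTR12C loci, 1226 (71.7%) had reads in U7 ASO libraries only and were listed through those reads. Which loci counted as beside or away, and their distances, therefore depended in part on the U7 ASO reads themselves. The 30 LTR8 loci beside LTR12 or HERV9 had 431, 228 and 301 CPM with the U7 ASO and 31.6, 13.4 and 11.6 CPM with the control ASO. The 38 LTR1 loci beside them had 110, 110 and 143 CPM with the U7 ASO and 12.8, 8.59 and 5.79 CPM with the control ASO. The 27 MER52 loci beside them had 114, 77.3 and 74.7 CPM with the U7 ASO and 10.2, 4.29 and 3.86 CPM with the control ASO. The log2 ratios of these sums were 4.08, 3.74 and 3.86, and the groups did not overlap.

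A few copies made up much of these sums. Without LTR8B_dup16_1886744 the LTR8 loci beside LTR12 or HERV9 had 65.4, 42.8 and 75.1 CPM with the U7 ASO and 31.6, 12.3 and 11.6 CPM with the control ASO, and the ratio dropped to 3.30. Without their most counted copies, LTR1C_dup1_5254070 and MER52A_dup15_4556820, the ratios were 8.27 for LTR1 and 8.53 for MER52. With all raised loci left out, the ratios were 5.48 for LTR1, 1.93 for LTR8, where the groups then overlapped, and 7.11 for MER52.

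Away from LTR12 and HERV9 the families parted. The 465 such MER52 loci had 751, 669 and 763 CPM with the U7 ASO and 218, 297 and 271 CPM with the control ASO, a log2 ratio of 1.47. The 448 LTR1 loci had 649, 595 and 759 CPM with the U7 ASO and 403, 379 and 343 CPM with the control ASO, a log2 ratio of 0.83. For MER52 and LTR1 the groups again did not overlap. The 587 LTR8 loci had 942, 745 and 801 CPM with the U7 ASO and 984, 913 and 1069 CPM with the control ASO, a log2 ratio of -0.25 with overlapping groups. Loci beside LTR12 or HERV9 thus held 27.7% of the net difference of the LTR1 family. Among the raised names they held 97.6% of the net difference of LTR1C, 87.6% of that of LTR8B, 15.3% of that of MER52A, 11.5% of that of MER52D and 5.31% of that of LTR1A2. The LTR8 difference away from them had the opposite sign.

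**Figure D3:**
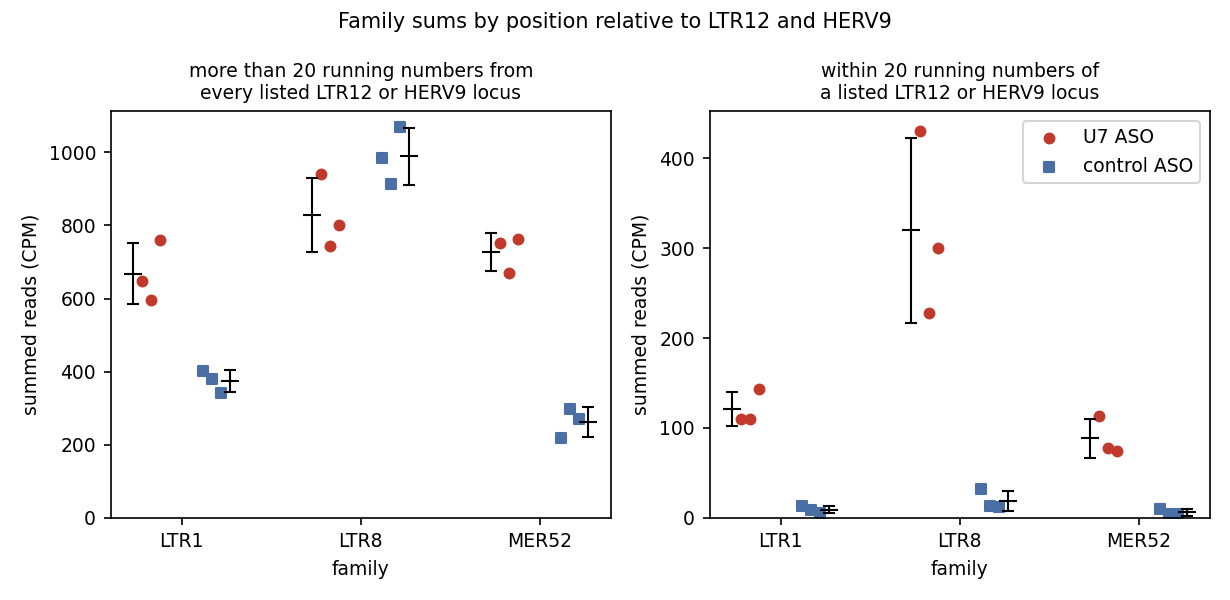
Summed CPM of each family per library, with mean and SD (n = 3 each), for loci away from (left) and beside (right) LTR12 and HERV9; circles are U7 ASO and squares control ASO libraries, and the vertical scales differ. Away from LTR12 and HERV9 the LTR8 groups overlap while those of LTR1 and MER52 do not.

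The names split in the same way when loci beside LTR12 or HERV9 were summed apart from the other loci of every name and all sums were tested again, an alternative added after the data were seen. Of the 19 members' sums away from LTR12 and HERV9 that were tested, 3 were called raised, LTR1A2 (log2 fold change 1.96, SE 0.21), MER52A (1.62, SE 0.21) and MER52D (1.64, SE 0.30), and 0 were lowered. Over all tested sums of this kind, which include the LTR12 and HERV9 names, 1.35% were raised and 1.71% lowered. LTR8B away from these elements had a log2 fold change of 0.39 (SE 0.23) and was no longer called, LTR1 had 0.36 (SE 0.51), and LTR1C had too few reads to be tested. Of the 10 members' sums beside LTR12 or HERV9, 6 were raised, those of LTR1, LTR1A2, LTR1C, LTR8, LTR8B and MER52A, and over all tested sums beside LTR12 or HERV9 31.3% were raised. A sum with few control reads could be tested only where the U7 ASO reads were many, which favours a raised call beside LTR12.

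In finer classes of distance, LTR8 did not overlap between the groups in the nearest class alone. MER52 and LTR1 each did not overlap in 5 of 6 classes. The exceptions were 21 to 50 running numbers for MER52 and 51 to 100 for LTR1. Such classes were not formed for other repeats. The 13 LTR8 loci within 5 running numbers averaged 299.5 ± 96.2 CPM with the U7 ASO and 9.72 ± 5.62 CPM with the control ASO. At 6 to 20 running numbers the 17 LTR8 loci averaged 20.2 ± 7.62 CPM with the U7 ASO and 9.15 ± 5.91 CPM with the control ASO and overlapped, and from there outward the U7 ASO mean was the lower one. The 295 MER52 loci more than 500 running numbers from any listed LTR12 or HERV9 locus averaged 468 ± 27.1 CPM with the U7 ASO and 173 ± 13.0 CPM with the control ASO, a log2 ratio of 1.43. At the same distance the 263 LTR1 loci averaged 368 ± 21.1 CPM with the U7 ASO and 226 ± 6.17 CPM with the control ASO, a log2 ratio of 0.70.

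Loci near the limit of 20 running numbers held few reads. Just inside it, MER52A_dup23_3800072 at 20 held 0, 0 and 14 reads with the U7 ASO and 0 with the control ASO. Just outside it, MER52C_dup23_2094810 at 21 held 0 reads with the U7 ASO and 0, 6 and 0 with the control ASO. Classes under 20 loci, such as those nearest LTR12, rest on few copies.

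**Figure D4:**
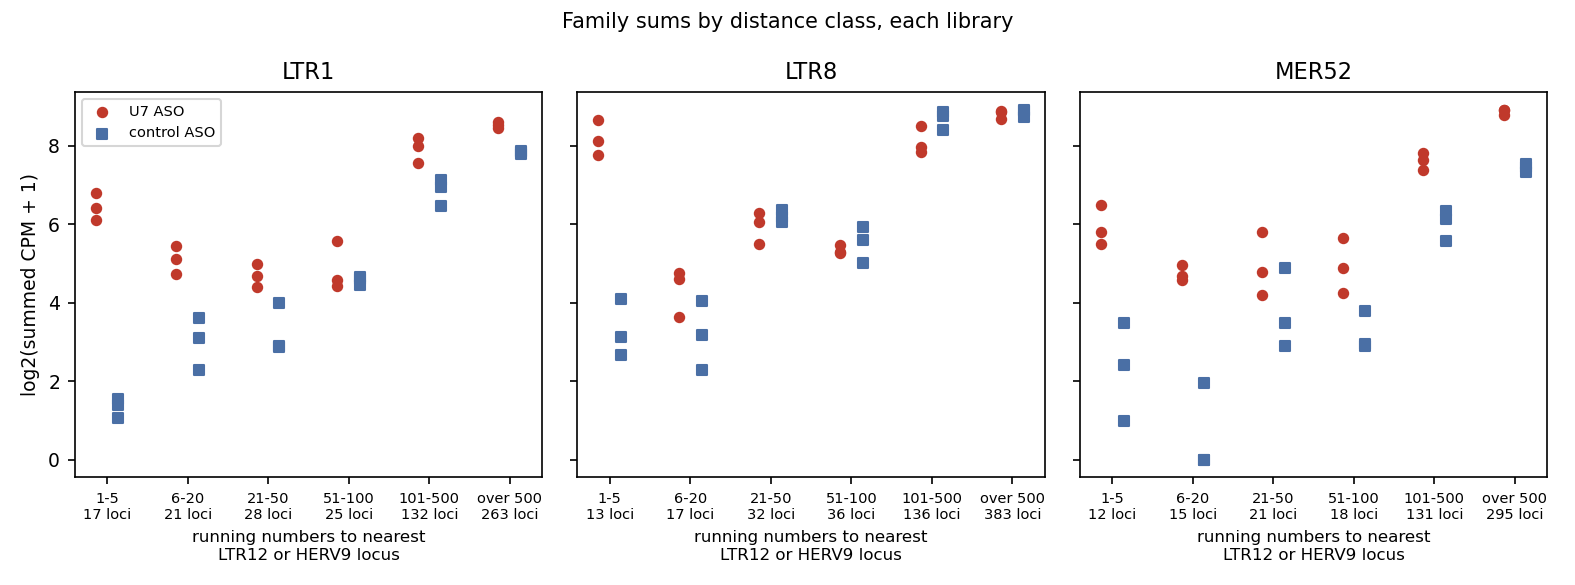
Family sums as log2(CPM + 1) for each library, by the number of running numbers to the nearest listed LTR12 or HERV9 locus; circles are U7 ASO libraries, drawn left of the squares of the control ASO libraries, and the number of loci stands under each class. U7 ASO libraries lie above the control ASO libraries in the class of over 500 for LTR1 and MER52 and overlap them for LTR8.

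Single copies could be tested at 73 of the 1595 loci, which held 46.2% of the members' reads. Of these, 15 were called raised and 0 lowered by edgeR, where 4.49% of all tested loci were raised and 0.473% lowered. At an unadjusted p under 0.05, 19 of the 73 were higher and 5 lower, against 8.21% higher and 4.09% lower over all tested loci. DESeq2 called 16 of the 73 raised and limma-voom 7, where DESeq2 raised 5.5% and limma-voom 2.37% of all tested loci, and both lowered 0 of the 73, where DESeq2 lowered 1.05% and limma-voom 0.549% of all tested loci. Of the 73 loci, 10 had 0 reads in all control ASO libraries and passed the count filter only through the U7 ASO libraries, and 9 of those 10 were raised. The raised loci comprised 7 of the LTR1 family, 3 of LTR8 and 5 of MER52. Beside LTR12 or HERV9, 6 of 7 tested members were raised, and away from them 9 of 66. Over all tested loci outside LTR12 and HERV9, 38.6% of those beside these elements were raised and 1.16% of those away from them.

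Away from LTR12, the raised copies were mostly LTR1A2 and MER52A. LTR1A2_dup30_3098326 held 98, 48 and 82 reads with the U7 ASO and 0 with the control ASO, at least 69.7-fold higher, with no other listed locus within 20 running numbers. LTR1A2_dup27_3455217 held 80, 63 and 46 reads with the U7 ASO and 0 with the control ASO, at least 57.8-fold higher. Its nearest listed LTR12 or HERV9 locus was LTR12C_dup104_3455044, at 173 running numbers. That LTR12C copy was also called raised, with 68, 62 and 38 reads with the U7 ASO and 0 with the control ASO. The 3 other LTR1A2 copies also had most of their reads with the U7 ASO. LTR1A2_dup1_4144768 held 42, 23 and 101 reads with the U7 ASO against 0, 0 and 1 with the control ASO, a ratio of 152 (exact 95% counting interval 26.9 to 6047). LTR1A2_dup6_3731474 held 42, 32 and 80 reads with the U7 ASO against 0, 4 and 0 with the control ASO (log2 fold change 4.98, SE 1.01). LTR1A2_dup48_747789 held 24, 34 and 59 with the U7 ASO against 2, 0 and 0 with the control ASO, a ratio of 53.6 (14.5 to 448). All 5 lay at least 133 running numbers from a listed LTR12 or HERV9 locus.

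Of the MER52A copies, MER52A_dup15_4352925 held 115, 20 and 93 reads with the U7 ASO and 0, 0 and 4 with the control ASO (log2 fold change 5.60, SE 1.00). MER52A_dup32_3078814 held 22, 22 and 48 reads with the U7 ASO and 0 with the control ASO, and MER52A_dup35_3611459 held 20, 48 and 23 with the U7 ASO and 0 with the control ASO, at least 28.1-fold and 27.8-fold higher. These 3 copies lay at least 553 running numbers from LTR12 or HERV9. LTR8B_dup21_3548534 was the ninth, at 46 running numbers, with 19, 30 and 24 reads with the U7 ASO and 0 with the control ASO. For 2 of the 9 copies, LTR1A2_dup27_3455217 and MER52A_dup32_3078814, the nearest listed LTR12 or HERV9 locus was itself called raised. For MER52A_dup32_3078814 it lay 1164 running numbers away. None of these 9 copies had another raised locus within 20 running numbers, where between 0 and 10 other loci were listed, with too few reads for any of them to be tested. Their neighbours summed to at most 79 reads with the U7 ASO, those around LTR1A2_dup1_4144768, which had 0 with the control ASO.

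Beside LTR12, 4 of the 6 raised copies had a raised neighbour within 20 running numbers, and in each of the 4 it was an LTR12C copy. Besides those described above, MER52A_dup15_4556820 held 144, 62 and 46 reads with the U7 ASO and 0 with the control ASO, at least 77.0-fold higher. The preceding running number, LTR12C_dup28_4556819, held 151, 114 and 156 reads with the U7 ASO and 0, 0 and 6 with the control ASO. LTR8_dup7_4446956 held 48, 47 and 102 reads with the U7 ASO and 2, 0 and 0 with the control ASO, a ratio of 90.3 (24.7 to 751), and lay 5 running numbers from LTR12C_dup4_4446961, which held 26, 68 and 6 with the U7 ASO and 0 with the control ASO and had too few for a test. The internal copy MER52-int_dup14_1590122 held 14, 14 and 38 reads with the U7 ASO and 0 with the control ASO, 15 running numbers from LTR12D_dup6_1590137. Whether reads at these pairs came from the same transcripts was not tested.

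**Figure D5:**
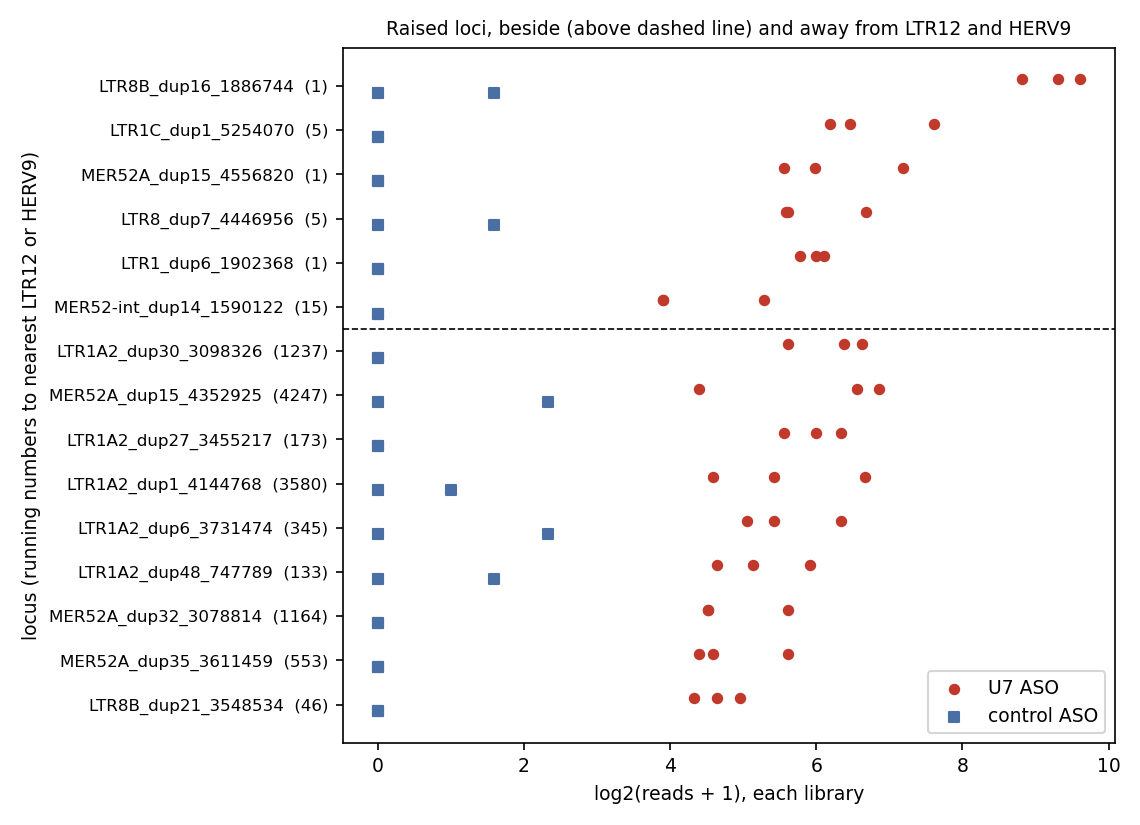
Reads per library, as log2(reads + 1), at the 15 raised loci, with the number of running numbers to the nearest LTR12 or HERV9 locus in brackets; circles are U7 ASO and squares control ASO libraries. The 6 loci above the dashed line lie beside LTR12 or HERV9, and no control ASO library exceeds 4 reads at any of the 15.

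Copies with many reads in both groups were not called. LTR8_dup17_21096 held 46, 72 and 88 reads with the U7 ASO and 20, 34 and 46 with the control ASO, and LTR8A_dup71_2647805 held 45, 16 and 69 with the U7 ASO and 44, 54 and 44 with the control ASO. MER52A_dup14_4834084 held 26, 28 and 96 reads with the U7 ASO and 10, 31 and 19 with the control ASO, and MER52A_dup57_4049958 held 42, 38 and 31 with the U7 ASO and 20, 4 and 19 with the control ASO. Of these, only MER52A_dup57_4049958 had no overlap in unscaled reads, and LTR8_dup17_21096 only met at 46 reads in both groups. MER52C_dup5_4979870 held 24, 30 and 26 reads with the U7 ASO and 6, 34 and 20 with the control ASO. LTR8A_dup3_2436721, the leading copy of LTR8A, held 6, 10 and 22 reads with the U7 ASO and 62, 25 and 50 with the control ASO (log2 fold change -1.99, SE 0.63) and was not called lowered.

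The leading copies of the other names held few reads. MER52D_dup15_3627198 held 16, 4 and 32 reads with the U7 ASO and 0 with the control ASO, at least 15.9-fold higher, and was not tested. MER52C_dup19_2900600 held 21, 14 and 16 reads with the U7 ASO and 0 with the control ASO, at least 15.6-fold higher, and was not called. In the LTR1 subfamilies, LTR1D_3984556 and LTR1E_dup1_886865 each summed to 32 reads with the U7 ASO and 0 with the control ASO. LTR1E_dup1_886865 carried 82.6% of the net difference of LTR1E and lay 6 running numbers from LTR12C_dup7_886871. That LTR12C copy held 26, 8 and 34 reads with the U7 ASO and 0 with the control ASO. LTR1B0_dup8_1128452, LTR1F1_dup6_1633896, LTR1A1_dup5_2953005, LTR1D1_dup1_4370040 and LTR1B1_dup3_2982964 summed to between 8 and 21 reads with the U7 ASO and had 0 with the control ASO. Of these, LTR1B0_dup8_1128452 carried 52.6% of the net difference of LTR1B0. It lay 7 running numbers from HERV9NC-int_dup10_1128445, which held 0, 0 and 4 reads with the U7 ASO and 0 with the control ASO. A raised copy, LTR12C_dup147_1128444, also lay within 20 running numbers of it. LTR1C3_dup1_896359 summed to 16 reads with the U7 ASO and 4 with the control ASO, and LTR1F_dup10_4096401 to 14 with the U7 ASO and 1 with the control ASO. LTR1F2_dup6_1061488 summed to 68 reads with the U7 ASO and 30 with the control ASO, and LTR1C1_dup2_5023024 to 44 with the U7 ASO and 68 with the control ASO, and neither was called.

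Calls on single copies depended on the libraries more than those on names. Of the 15 raised loci, 7 held in every alternative run for them and 8 lost their call in at least 1, and of the 9 away from LTR12 or HERV9 only LTR1A2_dup30_3098326 and LTR1A2_dup27_3455217 held in all. Without U7 ASO replicate 1 the number raised was 8, and the calls of LTR1A2_dup6_3731474 (log2 fold change 5.04), LTR1A2_dup48_747789 (5.71), LTR8B_dup21_3548534 (7.68), MER52A_dup15_4352925 (5.09), MER52A_dup32_3078814 (8.01), MER52A_dup35_3611459 (8.10) and MER52-int_dup14_1590122 (7.58) were lost. Without U7 ASO replicate 3 it was 9, with LTR1A2_dup1_4144768 (6.16), LTR1A2_dup6_3731474 (4.62), LTR1A2_dup48_747789 (5.18), LTR8B_dup21_3548534 (7.61), MER52A_dup32_3078814 (7.46) and MER52-int_dup14_1590122 (6.81) lost. Without U7 ASO replicate 2 it was 11, with LTR1A2_dup48_747789 (5.56), LTR8B_dup21_3548534 (7.36), MER52A_dup35_3611459 (7.36) and MER52-int_dup14_1590122 (7.59) lost. The last of these copies also lost its call without any 1 control ASO library (7.35 to 7.39), and LTR8B_dup21_3548534 without control ASO replicate 2 (7.59). Every one of these fold changes stayed positive. Leaving out 1 library also changed the number of tested loci, from 14380 to between 21137 and 22874, and with it the adjustment. Whether the lost calls came from this or from the library left out was not tested.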

How the data were processed

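Total RNA depleted of ribosomal RNA was sequenced from 6 HEK293T libraries, grouped by sample title. For each library the authors deposited a table with the whole-number read count of each repeat locus. STAR 2.5.3a, featureCounts 1.5.0-p1 (Subread), FastQC 0.11.5 and the build GRCh38 are named, per the submitters' processing notes. The repeat annotation is not given in the sources used here, nor are the strand setting, the treatment of multiply mapped reads and the counting of pairs. Even values made up 73.3% to 79.0% of the counts above 0.

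Counts were tested per locus (14380 tested) and summed per repeat name (2236 tested) with edgeR 4.0.16 under R 4.3.3 (glmQLFit and glmQLFTest, two-sided, TMM scaling, filterByExpr with a minimum count of 10 and a minimum total of 15). The Benjamini-Hochberg adjustment ran over every tested feature, and a feature was called under an adjusted p of 0.05. CPM used the TMM-scaled totals of the tested names. SE came from the fold change and F statistic. Folds against 0 control reads are bounds against 3 reads over the group, on the scaling of the loci, and cover counting error of the control reads only. Exact counting intervals of ratios pool the reads of each group, so they too leave out the spread between libraries. Bounds and intervals both take each read as a separate count, and claim too much precision if both reads of a pair were counted. Family sums, distances and copies left out have no test. Alternatives used DESeq2 1.42.0 and limma 3.58.1, other scalings, no filter, a replicate block, each library left out, and other windows. The code was tested on simulated counts. P-values measure the spread between libraries that the series' design text calls biological replicates.

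Members, lists and tests were chosen with earlier results of these data known. All member names are described. Named loci were the 5 with the most reads in each family, the leading locus of each name, and all called loci where a family had 10 or fewer, with the nearest LTR12 or HERV9 locus where beside one.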

Additional observations from a re-analysis of the deposited data

How the results depend on the processing

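The 5 raised names kept their calls under all 14 other settings of scaling, tool, filter, block or libraries, with log2 fold changes of 1.98 to 2.17 for LTR1A2, 4.71 to 6.62 for LTR1C, 1.72 to 2.00 for LTR8B, 1.66 to 1.91 for MER52A and 1.66 to 2.04 for MER52D. With loci beside LTR12 or HERV9 summed apart, 3 names were raised. Limma-voom called 7 raised loci and leaving out 1 library 8 to 14, and the cause was not tested. Log2 ratios of the sums beside LTR12 or HERV9 moved with the window, to 5.83, 3.00 and 2.10 for LTR1 and 4.95, 2.06 and 1.61 for LTR8 within 5, 50 and 100 running numbers, and to 2.52 and 2.36 for MER52 within 50 and 100. The MER52 ratio ran from 3.62 to 4.45 with 1 library left out. Sums away from LTR12 and HERV9 moved by less than the spread between libraries in every alternative, windows included. Uncalled values that changed sign when 1 library was left out were LTR1C1 (-0.32 to 0.18), LTR1F (-0.10 to 0.51), LTR8A_dup71_2647805 (-0.65 to 0.12) and MER52C_dup5_4979870 (-0.16 to 0.97), and LTR1E was -0.043 with neighbours summed apart. Over the whole table these 14 settings called 25 to 59 names raised and 8 to 76 lowered, against 34 and 23, and summing neighbours apart, which tests 2547 sums, called 133 raised and 39 lowered. For loci the 14 settings called 293 to 791 raised and 16 to 151 lowered, against 645 and 68. With replicate number as a block, 6 names and 14 loci of the families were raised. The block gained LTR1 and lost MER52-int_dup14_1590122 among the named results. Same-numbered libraries did not all deviate together (correlations over names of 0.11, -0.03 and 0.12). Differently numbered libraries had correlations of -0.15 to 0.06. With 3 libraries per group these values cannot settle whether the numbers pair the samples. At 1522 member loci the reads were too few for a test.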
